A study of Mus musculus with 6 samples.

Results

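The 9 genes described here follow the oligodendrocyte lineage, the glial lineage that makes the myelin of the central nervous system. They were taken as the rows of the deposited expression table with the symbols Olig1, Olig2, Sox10, Nkx2-2, Pdgfra, Cspg4, Gpr17, Mbp and Cnp, which makes 9 genes of 55335 in the table. The first 7 mark precursors and the last 2 mark the myelin stage. All 9 passed the filter on low values used for the tests, as did 12792 genes in all. RNA was sequenced from 6 samples of primary GABAergic interneurons, cells that release the inhibitory transmitter GABA, prepared from wild-type C57BL/6 mouse brains at embryonic day 14.5 and grown in neurobasal medium with B27. In 3 samples the cells received AAV-shbrpf1, an adeno-associated virus with a short hairpin against the chromatin regulator Brpf1, and in 3 they received AAV-scramble, the control virus. Every sample was exposed to virus for 12 hours, and no label gives the time between infection and harvest. The study is about the role of Brpf1 in interneurons of the medial ganglionic eminence (MGE), a ventral zone of the embryonic forebrain. The labels name the source of the cells as neural progenitors in one field and as GABAergic interneurons in others, and say nothing of whether a group's samples were separate cultures or embryos. The p-values below therefore measure only the spread between these samples.

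As background, the ventral forebrain gives rise to interneurons and, later, to a first wave of oligodendrocyte precursors, and its progenitors use Olig1 and Olig2 for both. Precursors divide and migrate in response to platelet-derived growth factor, which they sense through Pdgfra, and then pass through a committed stage marked by Gpr17 before they switch on myelin genes. Sox10 keeps the lineage on its course and acts directly on myelin genes. In bulk samples such as these, fewer cells of a type and less RNA per cell cannot be told apart. Levels are given as FPKM, fragments scaled to transcript length and library depth, which permits comparison between genes of different length.

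Coordinates are those of GRCm38. Olig2 (ENSMUSG00000039830, chr16:91225457-91228677, plus strand) and Olig1 (ENSMUSG00000046160, chr16:91269772-91271933, plus strand) are neighbours, with 41094 bases between them, and Olig1 has a single exon. Sox10 (ENSMUSG00000033006) lies at chr15:79154908-79165240 on the minus strand, and Nkx2-2 (ENSMUSG00000027434) at chr2:147177546-147194243 on the minus strand. Pdgfra (ENSMUSG00000029231) lies at chr5:75152292-75198215 and Cspg4 (ENSMUSG00000032911) at chr9:56865033-56899870, both on the plus strand. Cnp (ENSMUSG00000006782) lies at chr11:100574904-100591729 on the plus strand. The positions of Gpr17 and Mbp stand with their values.

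The upstream sequences of 4 members are shown, those for which a promoter window used here held bases before both starts of the gene. In the profiles described below, Olig2, Pdgfra and Cnp were highest in the libraries numbered 3 and Cspg4 in those numbered 2. Pdgfra was not lowest in those numbered 1. Each is the part of the RefSeq promoter window (GRCm38.p6) that lies before both the RefSeq and the GENCODE start of the gene, on the plus strand, 5′ to 3′. Capitals mark the Sox motif ACAAAG.
Olig2 (chr16:91225300-91225456): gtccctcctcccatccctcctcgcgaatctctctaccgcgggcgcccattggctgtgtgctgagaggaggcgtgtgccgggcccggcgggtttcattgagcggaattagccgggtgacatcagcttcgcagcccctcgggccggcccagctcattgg
Pdgfra (chr5:75152001-75152250): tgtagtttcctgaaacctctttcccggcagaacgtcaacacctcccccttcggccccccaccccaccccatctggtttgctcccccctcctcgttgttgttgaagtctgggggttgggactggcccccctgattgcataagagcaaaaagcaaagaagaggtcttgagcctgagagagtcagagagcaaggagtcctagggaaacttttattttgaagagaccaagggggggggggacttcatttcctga
Cspg4 (chr9:56864854-56865032): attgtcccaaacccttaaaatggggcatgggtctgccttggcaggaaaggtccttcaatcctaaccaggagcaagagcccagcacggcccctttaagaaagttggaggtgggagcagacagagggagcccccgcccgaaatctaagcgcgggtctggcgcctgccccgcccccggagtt
Cnp (chr11:100574689-100574903): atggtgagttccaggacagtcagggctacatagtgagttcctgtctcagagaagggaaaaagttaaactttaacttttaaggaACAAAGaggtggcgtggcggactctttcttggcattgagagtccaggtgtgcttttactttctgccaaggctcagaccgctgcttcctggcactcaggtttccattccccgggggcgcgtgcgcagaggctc
Promoter windows were examined for 5 members, the 4 above and Nkx2-2. No window matched Olig1 or Sox10, and windows of Gpr17 and Mbp were not examined. On both strands, ACAAAG occurred in the Cnp window alone among the 5, at position -167 from the RefSeq start site, and 18.7% of 27025 promoter windows hold it. The E-box CAGCTG was in none of the 5, and 16.1% of all windows hold it. A match is a description of letters and not a binding site.

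The libraries held an estimated 19.3, 13.1 and 16.6 M fragments in AAV-shbrpf1 samples 1, 2 and 3, and 14.3, 21.1 and 20.8 M in AAV-scramble samples 1, 2 and 3. The smallest library, AAV-shbrpf1 sample 2, listed 18780 genes above 0, against up to 26132 in another library. At these depths Nkx2-2, the lowest member, rested on about 39 to 130 fragments per library, with a counting error of 8.77% to 16%, and Olig1 on 1815 to 8055. The target Brpf1 was at 3.13, 4.58 and 3.78 FPKM in AAV-shbrpf1 samples 1, 2 and 3, against 3.29, 5.45 and 4.84 FPKM in AAV-scramble samples 1, 2 and 3. It was lower in AAV-shbrpf1 in each of 3 same-numbered pairs, but the groups overlapped and the difference of -0.18 on the log2(FPKM + 1) scale did not pass (limma adjusted p = 1).

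Olig1 was the most abundant member, at 121 ± 48.3 FPKM (SD over 6 libraries), and Olig2 followed at 46.8 ± 11.1. Next came Cnp at 20.2 ± 6.43, Pdgfra at 13.2 ± 3.42, Sox10 at 12.4 ± 5.80, Gpr17 at 9.18 ± 5.09, Mbp at 5.78 ± 2.09, Cspg4 at 2.99 ± 1.55 and Nkx2-2 at 2.29 ± 0.905 FPKM. The order of neighbours was the same in 6 of 6 libraries, except that Pdgfra exceeded Sox10 in 4 of 6, Sox10 exceeded Gpr17 in 5 of 6 and Cspg4 exceeded Nkx2-2 in 3 of 6. Those 3 pairs of neighbours do not differ beyond their spread. Both basic helix-loop-helix factors of the lineage thus lay above each surface gene and each myelin gene in all 6 libraries.

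**Figure D1:**
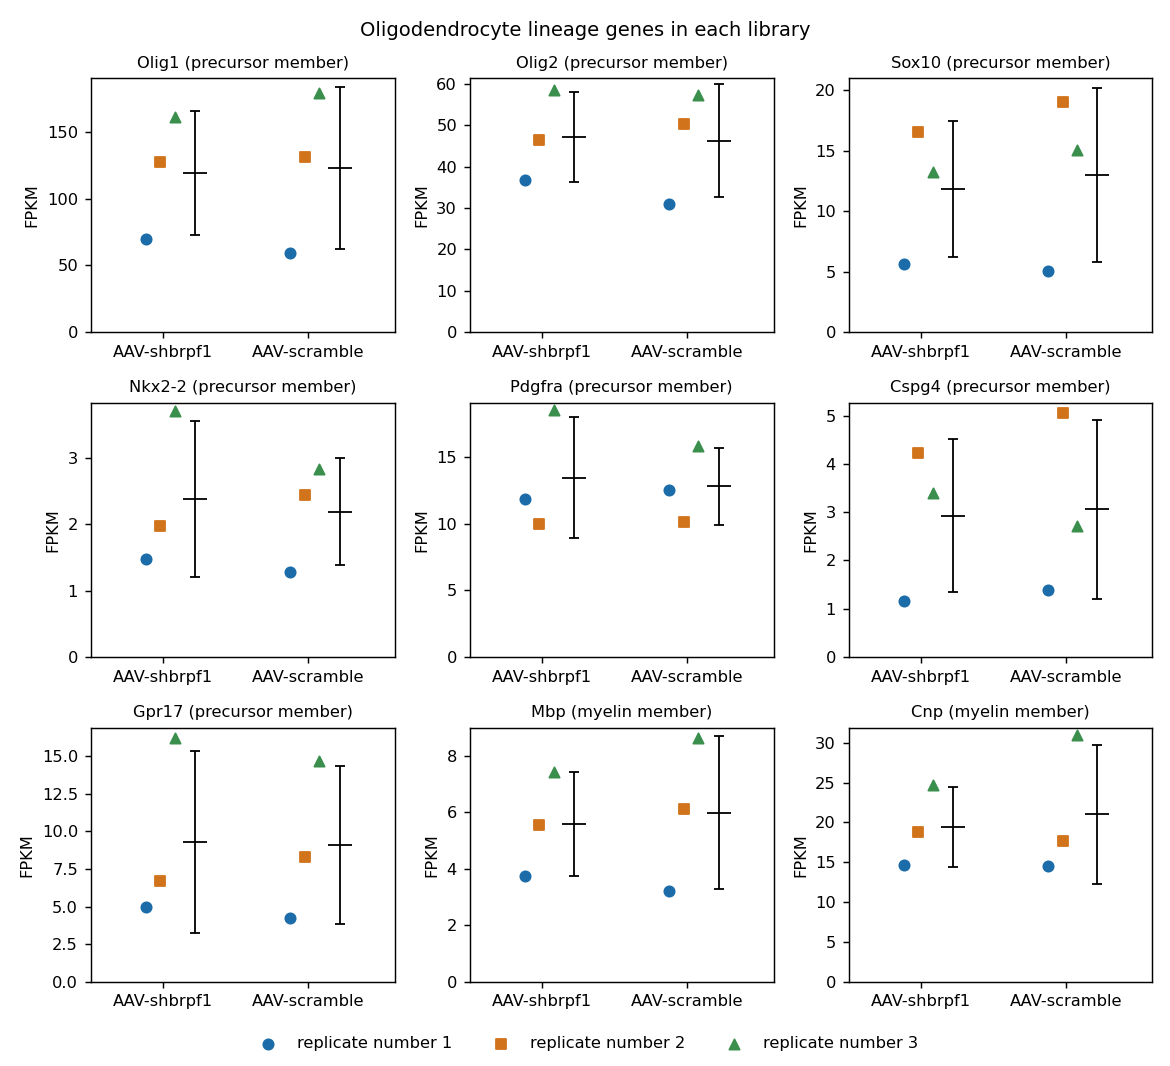
FPKM of each of the 9 members (vertical axes, each from 0) in the 3 AAV-shbrpf1 and the 3 AAV-scramble libraries, with symbols for the replicate number and bars for the group mean ± SD (n = 3). The symbols of 1 replicate number sit at like heights in both groups, and the group means differ far less than the numbers do, as for Olig1 (119 FPKM in AAV-shbrpf1 and 123 FPKM in AAV-scramble).

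Olig1 and Olig2 are basic helix-loop-helix factors that specify the lineage. Olig1 measured 69.4, 127 and 161 FPKM in AAV-shbrpf1 samples 1, 2 and 3, against 58.9, 131 and 179 FPKM in AAV-scramble samples 1, 2 and 3. The sample numbered 1 was the low one in both groups, and the groups overlapped (log2 difference 0.01, SE 0.49, limma adjusted p = 1). Olig2 measured 36.7, 46.6 and 58.5 FPKM in AAV-shbrpf1 samples 1, 2 and 3, against 31.0, 50.3 and 57.5 FPKM in the AAV-scramble samples of the same numbers. Like Olig1 it rose from sample 1 to sample 3 in each group. Its range was smaller, 1.88 times between the lowest and highest library where Olig1 had 3.04 times. Olig1 exceeded Olig2 1.89, 2.74 and 2.75 times in AAV-shbrpf1 samples 1, 2 and 3, and 1.90, 2.61 and 3.12 times in AAV-scramble samples 1, 2 and 3. Sample 1 thus had the lowest ratio in each group.

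Sox10, an HMG-box factor that the lineage needs from the precursor to myelin, had 5.64, 16.5 and 13.2 FPKM in AAV-shbrpf1 samples 1, 2 and 3, against 5.02, 19.0 and 15.0 FPKM in AAV-scramble samples 1, 2 and 3. Here the sample numbered 2 was the highest in each group, and the groups overlapped (log2 difference -0.07, SE 0.54, limma adjusted p = 1). Sox10 stood at 0.15, 0.36 and 0.23 times Olig2 in AAV-shbrpf1 samples 1, 2 and 3, and at 0.16, 0.38 and 0.26 times in AAV-scramble samples 1, 2 and 3. Nkx2-2, a homeobox factor that times the differentiation of precursors, had 1.47, 1.97 and 3.70 FPKM in AAV-shbrpf1 samples 1, 2 and 3, against 1.29, 2.45 and 2.83 FPKM in the AAV-scramble samples of the same numbers. Its largest difference within a pair, 30.7% higher in AAV-shbrpf1 sample 3 than in AAV-scramble sample 3, was also the largest of all 27 pair differences of the 9 members. Its antisense partner Nkx2-2os reached 0.0995 FPKM at most.

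Pdgfra, the receptor for platelet-derived growth factor A, had 11.9, 9.96 and 18.6 FPKM in AAV-shbrpf1 samples 1, 2 and 3, against 12.5, 10.1 and 15.9 FPKM in AAV-scramble samples 1, 2 and 3. It was the member whose lowest value fell in the samples numbered 2, in both groups. Cspg4, the NG2 proteoglycan of precursors and of pericytes, had 1.15, 4.22 and 3.40 FPKM in AAV-shbrpf1 samples 1, 2 and 3, against 1.38, 5.06 and 2.72 FPKM in AAV-scramble samples 1, 2 and 3. As with Sox10, sample 2 was the highest in each group, and the range over libraries, 4.39 times, was the widest of the members. Gpr17 (ENSMUSG00000052229, chr18:31942997-31949636, minus strand), an orphan receptor of committed precursors that holds back their maturation, had 4.96, 6.67 and 16.2 FPKM in AAV-shbrpf1 samples 1, 2 and 3, against 4.23, 8.31 and 14.7 FPKM in AAV-scramble samples 1, 2 and 3. Both samples numbered 3 stood above the other 4. The log2 differences between the viruses were 0.04 (SE 0.30) for Pdgfra, -0.04 (SE 0.45) for Cspg4 and 0.02 (SE 0.52) for Gpr17, each with overlapping groups and a limma adjusted p = 1. Gpr17 overlaps exons of Lims2, which lies on the opposite strand and measured 0.927, 1.76 and 2.02 FPKM in AAV-shbrpf1 samples 1, 2 and 3, against 0.900, 2.05 and 1.82 FPKM in AAV-scramble samples 1, 2 and 3. No source used here says whether counting was by strand, so reads of the pair could be mixed.

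Both myelin members lay below Olig1 and Olig2, and Cnp lay above the other precursor members in its mean level. Mbp (ENSMUSG00000041607, chr18:82475146-82585637, plus strand), the myelin basic protein that compacts the sheath, had 3.75, 5.54 and 7.43 FPKM in AAV-shbrpf1 samples 1, 2 and 3, against 3.20, 6.13 and 8.64 FPKM in AAV-scramble samples 1, 2 and 3. The Mbp gene has 16 annotated transcripts, and its value cannot separate the classic myelin forms from the Golli forms, which start upstream and are also made outside the oligodendrocyte lineage. Cnp, an enzyme of the non-compact myelin that is also made by precursors, had 14.7, 18.9 and 24.6 FPKM in AAV-shbrpf1 samples 1, 2 and 3, against 14.5, 17.7 and 31.0 FPKM in AAV-scramble samples 1, 2 and 3. The groups overlapped for both, with log2 differences of -0.05 (SE 0.37) for Mbp and -0.07 (SE 0.34) for Cnp (limma adjusted p = 1 each). Mbp stood at 0.26, 0.29 and 0.30 times Cnp in AAV-shbrpf1 samples 1, 2 and 3, and at 0.22, 0.35 and 0.28 times in AAV-scramble samples 1, 2 and 3. Cnp shares exon sequence with Dnajc7 on the opposite strand, which had 34.5, 14.6 and 23.5 FPKM in AAV-shbrpf1 samples 1, 2 and 3, against 32.4, 15.6 and 24.4 FPKM in AAV-scramble samples 1, 2 and 3. Dnajc7 was lowest in the samples numbered 2 and Cnp in those numbered 1.

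No member was called between the viruses, where 0 of the 12792 genes tested (0%) passed and 23 had an unadjusted limma p under 0.05. The 9 log2 differences, AAV-shbrpf1 minus AAV-scramble, ran from -0.07 to 0.06, with 5 above and 4 below 0 and a median of 0.01, where all genes had a median of -0.02. The exact two-sided permutation p over samples was between 0.8 and 1 for each member, in a design whose smallest possible p is 0.1. Without a block the 95% intervals were wide, from -1.34 to 1.23 at the extremes, because samples of a group differed greatly. Samples of the same number deviated together, so the numbers pair the samples, and with the number as a block the SE of the members fell to between 0.09 and 0.14. All 9 block intervals lay between -0.37 and 0.41, which corresponds to 0.773 to 1.33 times on the FPKM + 1 scale, and each adjusted p was 1. Within pairs, AAV-shbrpf1 differed from AAV-scramble by -20.4% to 30.7%, and 26 of the 27 differences were within 25%. With the block, 0 genes passed over the whole table and 280 had an unadjusted p under 0.05. Without pair 2 the block fit called 8 genes and without pair 3 it called 1, none of them a member.

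**Figure D2:**
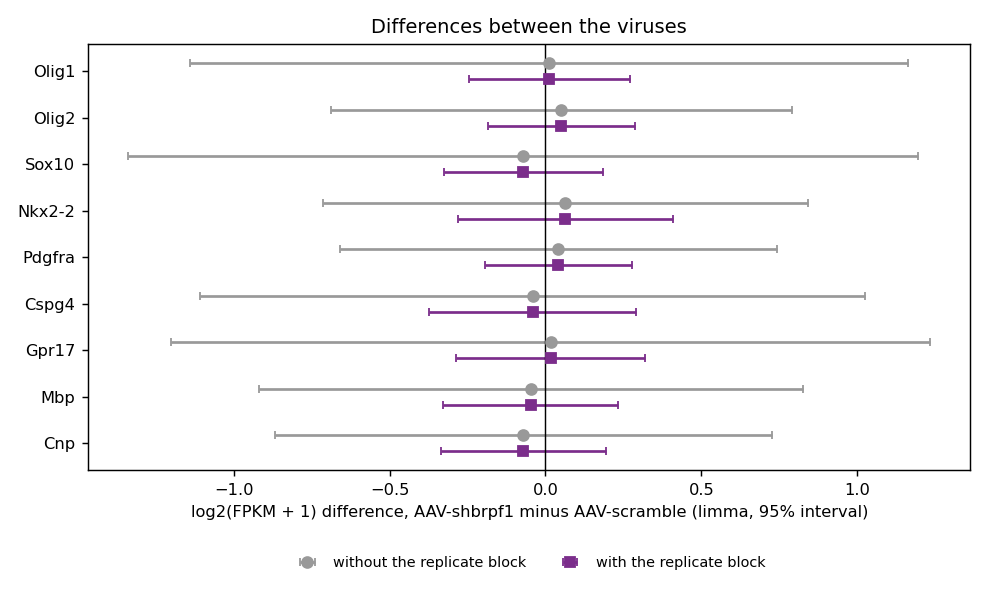
Difference AAV-shbrpf1 minus AAV-scramble of each member on the log2(FPKM + 1) scale with limma 95% intervals, without the replicate block (grey circles) and with it (purple squares), over 3 samples a group. Every interval contains 0, and the block intervals stay between -0.37 and 0.41.

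The members differed between replicate numbers instead. All 9 passed limma's F test of replicate number with the group in the model, with adjusted p from 0.0023 for Sox10 to 0.017 for Nkx2-2. Of all genes tested 69.4% passed that test too, so 9 of 9 is read against a high background. No label says what the replicate numbers mark. Both libraries numbered 1 lay below the other 4 for 8 of 9 members, Pdgfra being the exception, and 23.5% of all genes had this order. Both libraries numbered 3 lay above the other 4 for 7 of 9, all but Sox10 and Cspg4, against 16.3% of all genes.

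The pairwise contrasts between numbers were added after the values had been seen, and they share libraries with each other. In samples 3 against samples 1, 9 of 9 members were higher at an adjusted p under 0.05, where 15.3% of all genes were. The log2 differences (SE 0.12 to 0.17) were largest for Gpr17 at 1.56, Olig1 at 1.39 and Sox10 at 1.26, and smallest for Pdgfra at 0.46. The median of the members was 0.88 and that of all genes -0.01. When genes with any value above 0 were tested in place of those with a mean of 1 FPKM, 5 of 9 members and 1.99% of all genes passed this contrast. In samples 2 against samples 1, 6 of 9 passed as higher, where 22.9% of all genes did. Sox10 and Cspg4 had the largest differences, 1.57 and 1.31, and Olig1 followed at 1.00. Nkx2-2 (0.43, adjusted p = 0.070), Cnp (0.31, adjusted p = 0.083) and Pdgfra (-0.26, adjusted p = 0.099) did not pass in this limma contrast. In samples 3 against samples 2, Gpr17 (0.96), Pdgfra (0.72) and Cnp (0.57) passed as higher, 3 of 9 where 34.3% of all genes did, and 0 of 9 passed as lower in the deposited values, where 12.9% of all genes did. Sox10 and Cspg4 had negative differences of -0.31 and -0.47 here, with limma adjusted p = 0.090 and 0.058. Without the samples numbered 1 the F test passed 3 of 9 members and 31.8% of all genes, so the members' share was near the background. Without those numbered 3 it passed 7 of 9 members and 66% of all genes.

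Some of these directions and calls depend on scaling. The median of all genes was -0.25 for samples 2 minus samples 1 in the deposited values and 0.07 after median-ratio scaling. With that scaling Pdgfra stood at 0.12 in samples 2 minus samples 1, and Olig2 at -0.08 in samples 3 minus samples 2, in place of -0.26 and 0.26 as deposited. In samples 3 against samples 1 all 9 members passed as higher in the deposited values, after median-ratio scaling (16.8% of all genes) and after quantile normalization (17.6%). In samples 2 against samples 1, Nkx2-2 and Cnp also passed as higher under both scalings, and Olig2 no longer passed after quantile normalization (limma adjusted p = 0.055). Of all genes, 35.9% passed that contrast as higher after median-ratio scaling and 32.2% after quantile normalization. In samples 3 against samples 2, Sox10 (-0.63, limma adjusted p = 0.017) and Cspg4 (-0.75, adjusted p = 0.016) passed as lower after median-ratio scaling, where 24.2% of all genes did. Cspg4 (-0.76, limma adjusted p = 0.015) passed as lower after quantile normalization too, where 18.2% did. As higher in that contrast, Cnp no longer passed after median-ratio scaling (limma adjusted p = 0.20), where 16.4% of all genes passed, and Olig1 passed after quantile normalization (adjusted p = 0.039), where 18.7% did.

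**Figure D3:**
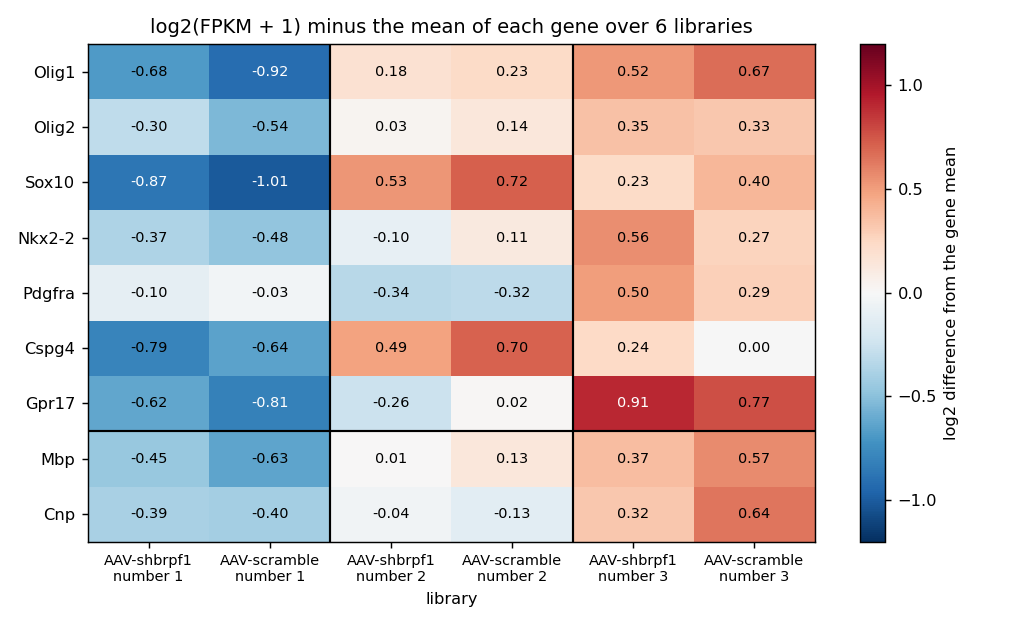
log2(FPKM + 1) of each member minus its own mean over the 6 libraries, with members in rows and libraries in columns ordered by replicate number, AAV-shbrpf1 left of AAV-scramble within each number; colour and printed value show the same difference. The columns numbered 1 are below 0 throughout, Sox10 and Cspg4 are highest in the columns numbered 2, and the other 7 members are highest in those numbered 3.

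Base composition moved with the replicate numbers. When the genes tested were cut into 5 equal groups by the GC content of their longest transcript, the median difference of samples 2 minus samples 1 was -1.18, -0.67, -0.19, 0.24 and 0.58 from the lowest to the highest GC. For samples 3 minus samples 1 the medians were -0.47, -0.13, 0.06, 0.15 and 0.25 in the same order, and between the viruses they stayed between -0.06 and -0.01. The members span 48.1% GC in Pdgfra to 61.8% in Sox10. Set against the median of genes within 1 percentage point of the same GC, the members' differences of samples 3 minus samples 1 remained 0.48 to 1.43 higher, with Pdgfra at the low end and Gpr17 at the high end. For samples 2 minus samples 1, Sox10 was 0.83, Cspg4 0.72 and Mbp 0.64 above genes of like GC. Gpr17 was 0.40, Olig1 0.37 and Pdgfra 0.16 above them. Nkx2-2 (0.04), Cnp (-0.04) and Olig2 (-0.08) lay at the level of such genes. The part of base composition in the differences between numbers was not tested further.

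**Figure D4:**
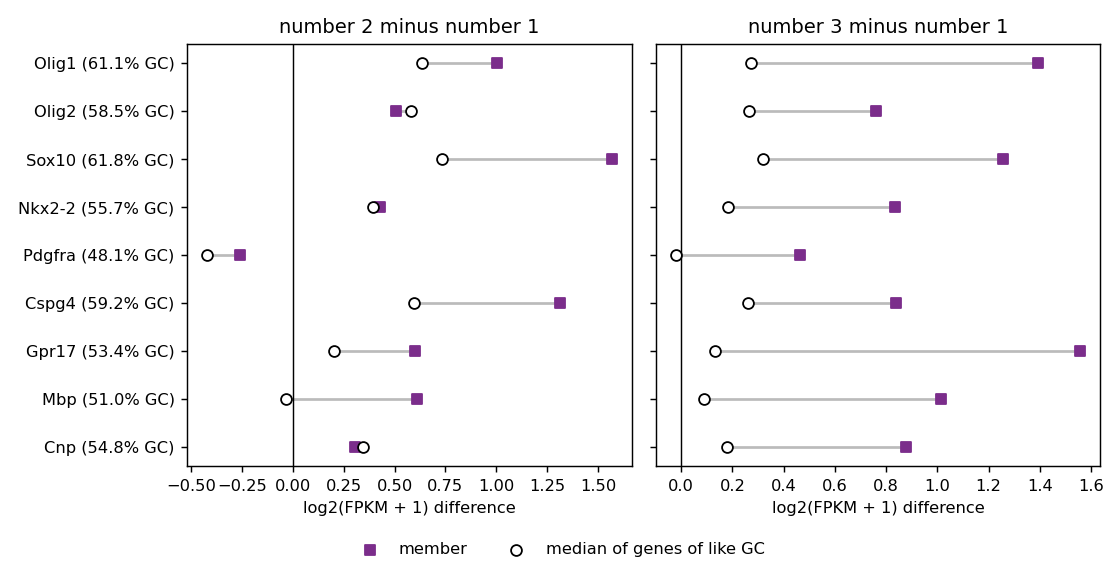
Log2(FPKM + 1) difference of each member (filled squares) and the median of genes whose GC lies within 1 percentage point (open circles), for samples 2 minus samples 1 on the left and samples 3 minus samples 1 on the right. On the right each member lies to the right of its comparison median, by 0.48 (Pdgfra) to 1.43 (Gpr17); on the left Nkx2-2, Cnp and Olig2 lie close to theirs.

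The 7 precursor members had a larger sum than the 2 myelin members in each library, a comparison of unequal numbers of genes. The precursor sum was 131, 213 and 275 FPKM in AAV-shbrpf1 samples 1, 2 and 3, against 114, 226 and 288 FPKM in AAV-scramble samples 1, 2 and 3. Mbp and Cnp together made 18.4, 24.4 and 32.1 FPKM in AAV-shbrpf1 samples 1, 2 and 3, against 17.7, 23.8 and 39.6 FPKM in AAV-scramble samples 1, 2 and 3. Olig1 alone held 51.5% to 62.3% of the precursor sum. Apart from Olig1 and Olig2, which MGE progenitors also use, no precursor member exceeded Cnp in mean level (20.2 FPKM, with Pdgfra next at 13.2 FPKM). The mean log2(FPKM + 1) of the myelin members minus that of the precursor members was -0.15, -0.36 and -0.38 in AAV-shbrpf1 samples 1, 2 and 3, against -0.14, -0.49 and -0.04 in AAV-scramble samples 1, 2 and 3. The group means, -0.29 ± 0.13 in AAV-shbrpf1 and -0.23 ± 0.23 in AAV-scramble (SD, n = 3 each), differed by less than the spread within either group. Both stages shared the low values of the samples numbered 1. Between precursor genes, Gpr17 stood at 0.42, 0.67 and 0.87 times Pdgfra in AAV-shbrpf1 samples 1, 2 and 3. In AAV-scramble samples 1, 2 and 3 it stood at 0.34, 0.82 and 0.92 times. Between a myelin and a precursor gene, Mbp stood at 0.76, 0.83 and 0.46 times Gpr17 in AAV-shbrpf1 samples 1, 2 and 3. In AAV-scramble samples 1, 2 and 3 it stood at 0.76, 0.74 and 0.59 times. The first ratio was lowest in sample 1 and the second in sample 3, in both groups. Fibroblasts can also make Pdgfra, and their marker sums were highest in the samples numbered 1. The Mbp value can include Golli forms. Whether either ratio follows maturation was not tested.

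Further lists of lineage genes had no gene called between the viruses, with or without the block. Of 22 other precursor genes 16 were tested, and 9 of them were higher and 1 lower in samples 3 than in samples 1, with a median difference of 0.70, where 15.3% of all genes were higher and 15.8% lower. In samples 2 against samples 1, 4 of the 16 were higher and 6 lower, near the 22.9% and 42.4% of all genes. The most abundant, Bcan, a proteoglycan of the extracellular matrix, had 42.1, 107 and 129 FPKM in AAV-shbrpf1 samples 1, 2 and 3, against 32.4, 101 and 124 FPKM in AAV-scramble samples 1, 2 and 3. Like Olig1 it rose from sample 1 to sample 3 in each group, with both samples numbered 1 far below the others. Ptprz1, a receptor phosphatase shared with radial glia, had 60.4, 28.4 and 79.0 FPKM in AAV-shbrpf1 samples 1, 2 and 3, against 55.8, 38.8 and 73.7 FPKM in AAV-scramble samples 1, 2 and 3. It was lowest in the samples numbered 2, like Pdgfra. Of 15 genes of newly formed oligodendrocytes 14 were found and 13 tested, and 8 were higher and 0 lower in samples 3 than in samples 1, with a median of 0.61. In samples 2 against samples 1, 3 were higher and 1 lower, where 22.9% and 42.4% of all genes were. Fyn, a kinase of the Src family, ranged between 36.4 and 51.3 FPKM and Sirt2, a deacetylase enriched in myelin, between 9.15 and 23.5 FPKM. Chosen after their values were seen, Bcas1, a marker of newly formed oligodendrocytes, had 7.58, 8.43 and 18.3 FPKM in AAV-shbrpf1 samples 1, 2 and 3, against 7.41, 11.1 and 18.9 FPKM in AAV-scramble samples 1, 2 and 3. Myrf, the factor that switches on myelin genes, reached 3.62 FPKM at most.

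Of 25 other myelin genes 17 were tested. In samples 3 against samples 1, 3 were higher and 2 lower, with a median of 0.22, near the 15.3% and 15.8% of all genes. In samples 2 against samples 1, 3 were higher and 7 lower, again near the shares of all genes. The most abundant were Nfasc, a cell adhesion molecule also made by neurons, at 15.9 to 34.5 FPKM, and Qdpr, a dihydropteridine reductase, at 16.0 to 39.0 FPKM. The next genes were chosen after their values were seen. Mag, an adhesion protein of the innermost wrap, had 1.37, 4.30 and 3.44 FPKM in AAV-shbrpf1 samples 1, 2 and 3, against 1.55, 3.59 and 3.59 FPKM in AAV-scramble samples 1, 2 and 3. Of the genes known from mature oligodendrocytes, Mobp was at 0.586 FPKM or less, Opalin at 0.041 or less and Aspa at 0.0256 or less in every library.

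Of 28 genes of signals that act on the lineage 20 were tested. In samples 3 against samples 1, 8 were higher and 2 lower, where 15.3% and 15.8% of all genes were. In samples 2 against samples 1, 4 were higher and 4 lower, where 22.9% and 42.4% of all genes were. The most abundant were Id2 and Id4, inhibitors of basic helix-loop-helix factors. Id2 had 27.8, 15.3 and 21.1 FPKM in AAV-shbrpf1 samples 1, 2 and 3, against 35.6, 14.0 and 19.7 FPKM in AAV-scramble samples 1, 2 and 3. It was highest in the samples numbered 1, where Olig1 was lowest. Id4 had 11.4, 6.59 and 21.4 FPKM in AAV-shbrpf1 samples 1, 2 and 3, against 13.3, 9.14 and 22.1 FPKM in AAV-scramble samples 1, 2 and 3. Pdgfa, the ligand of Pdgfra and chosen here after its values were seen, lay between 4.15 and 5.54 FPKM in all 6 libraries and did not pass the F test of replicate number (limma adjusted p = 0.46).

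Several members are also made by other cells, so markers of those cells were summed in each library. Neuron markers summed to 1240, 1232 and 1191 FPKM in AAV-shbrpf1 samples 1, 2 and 3, against 1211, 1274 and 1251 FPKM in AAV-scramble samples 1, 2 and 3. The even sum held opposite differences. Of 10 tested, all 10 differed between replicate numbers, where 69.4% of all genes did. In samples 2 against samples 1, 3 were higher and 6 lower, where 22.9% and 42.4% of all genes were. In samples 3 against samples 1, 2 were higher and 4 lower, where 15.3% and 15.8% of all genes were. The counts of the lists below are to be read against the same shares. Markers of astrocytes and radial glia summed to 954, 392 and 890 FPKM in AAV-shbrpf1 samples 1, 2 and 3, against 938, 408 and 927 FPKM in AAV-scramble samples 1, 2 and 3. This sum was lowest in the samples numbered 2, as was its largest part, Fabp7, named after its values were seen. Fabp7 had 758, 169 and 570 FPKM in AAV-shbrpf1 samples 1, 2 and 3, against 730, 187 and 581 FPKM in the AAV-scramble samples. The list did not follow Fabp7 as a whole: of 10 tested, 3 were higher and 4 lower in samples 2 than in samples 1. In samples 3 against samples 1, 5 were higher and 1 lower. MGE progenitor markers, from cells that also use Olig1 and Olig2, summed to 150, 92.3 and 174 FPKM in AAV-shbrpf1 samples 1, 2 and 3, against 132, 107 and 177 FPKM in AAV-scramble samples 1, 2 and 3. Of 9 tested, 5 were higher and 1 lower in samples 3 than in samples 1. In samples 2 against samples 1, 1 was higher and 5 were lower. Fibroblast and meningeal markers, from cells that can make Pdgfra, summed to 25.7, 5.07 and 3.48 FPKM in AAV-shbrpf1 samples 1, 2 and 3, against 51.3, 5.08 and 3.33 FPKM in AAV-scramble samples 1, 2 and 3. Pericyte and mural markers, from cells that make Cspg4, summed to 29.3, 10.5 and 10.1 FPKM in AAV-shbrpf1 samples 1, 2 and 3, against 30.6, 12.2 and 11.4 FPKM in AAV-scramble samples 1, 2 and 3, with Kcnj8 listed at 0 in all 6 libraries. The sums of both lists were highest in the samples numbered 1, where Cspg4 was lowest. The pericyte and mural sums there were mostly Acta2 and Tagln, named after their values were seen. Acta2 had 11.6 and Tagln 12.5 FPKM in AAV-shbrpf1 sample 1, against 11.5 and 13.5 FPKM in AAV-scramble sample 1. Of the same list, Pdgfrb did not differ between replicate numbers (limma F test adjusted p = 0.30) and Rgs5 reached 0.600 FPKM at most. The sum therefore does not stand for the list as a whole. Of 8 fibroblast markers 6 were tested, and all 6 were lower in samples 2 and in samples 3 than in samples 1; of 8 pericyte markers 4 were tested, and 2 were lower and 1 higher in either contrast. The one that was higher, Notch3, named after its values were seen, had 3.89, 8.88 and 7.67 FPKM in AAV-shbrpf1 samples 1, 2 and 3, against 2.69, 10.6 and 8.79 FPKM in AAV-scramble samples 1, 2 and 3, and like Cspg4 it was highest in the samples numbered 2. The part of progenitor, fibroblast and mural cells in the levels of Olig1, Olig2, Pdgfra and Cspg4 was not tested. Foxd3, a marker of neural crest, whose cells can make Sox10, was at 0.0302 FPKM or less in every library. Microglia markers summed to 0.825 FPKM at most and endothelial markers to 0.867 at most, and 0 of 8 and 0 of 7 passed the filter. Cx3cr1 was listed at 0 in all libraries. The symbol Itgam has several entries, of which only the first was used, and that entry was listed at 0 too.

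**Figure D5:**
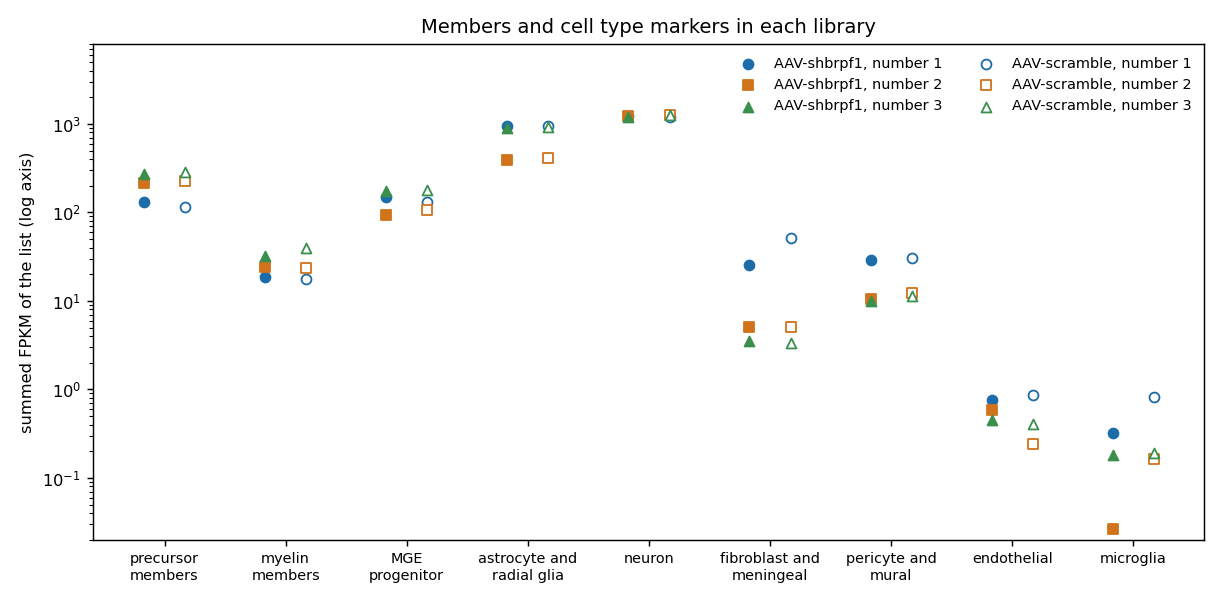
Summed FPKM (log axis) of the precursor members, the myelin members and 7 lists of cell type markers in each library, AAV-shbrpf1 filled and AAV-scramble open, with colour and shape for the replicate number. Precursor sums are lowest in the samples numbered 1 (131 in AAV-shbrpf1 and 114 in AAV-scramble), fibroblast sums are highest there (25.7 and 51.3), and neuron sums lie between 1191 and 1274 in all 6.

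The members were not alike in their profiles over the 6 libraries. The likeness of a pair was measured as the root-mean-square difference between their log2(FPKM + 1) profiles, each centred on its own mean, so that smaller is more alike. Olig2 and Nkx2-2 were the most alike pair, at 0.11, and Sox10 and Pdgfra the least, at 0.76. Sox10 and Cspg4, both highest in the samples numbered 2, stood at 0.23. Among 11369 other named genes the nearest to Olig1 were Cdh4 (0.041) and Sdk2 (0.074), to Olig2 Zmynd8 (0.041) and Ddr1 (0.046), and to Sox10 Pcdhgc3 (0.051) and Atp1b2 (0.058). The nearest to Nkx2-2 were Hdac4 (0.052) and Map1b (0.080), to Pdgfra Foxn3 (0.034) and Camk1d (0.035), and to Cspg4 Wipf2 (0.081) and Tsen34 (0.082). Gpr17 was nearest to Spon1 (0.091) and Tril (0.103), Mbp to C1qtnf6 (0.040) and Chst3 (0.047), and Cnp to Rps12 (0.029) and Shisa6 (0.054). Rps12 has near-identical copies elsewhere in the genome, so its value is less certain. The likeness is a description over 6 libraries that share 3 replicate numbers.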

How the data were processed

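Paired-end libraries of total RNA from 6 samples were run on an Illumina HiSeq, per the labels' protocols. The authors deposited 1 table of gene values, which are taken as FPKM because they are not whole, have no fixed sum and scale with transcript length at the low end; the header names no unit. The submitters' processing notes name FastQC, StringTie, DESeq2 and mm9, without roles; however, 54899 of 55154 identifiers found in GENCODE M21 (GRCm38) have its start and end, so GRCm38 is used. Aligner and strand use were not given in the sources used here, and FPKM of a gene moves with the transcripts summed. Depth was estimated from the steps between low FPKM values in 11673 single-exon genes; since 40.1% to 44.1% of low values lay on whole steps (tolerance 0.03), reads were not recovered and no count test was run. Error given for fragments is counting error only.

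The 12792 genes whose mean reached 1 FPKM in either group were tested two-sided on log2(FPKM + 1), using limma 3.58.1 with its trend option (R 4.3.3), as AAV-shbrpf1 minus AAV-scramble without covariates. Benjamini-Hochberg adjustment ran over all genes tested, with a threshold of 0.05. This scale understates changes of low genes. An F test compared replicate numbers with the group in the model. Scripts were tested on simulated data. Deviations from the group mean correlated at 0.87, 0.83 and 0.57 between same-numbered samples, so numbers were treated as pairs. Between other samples they correlated at -0.73 to 0.002. Deviations sum to 0 within a group, so these values are tied to the same-numbered ones and add no separate support. No label says what the numbers mark. GC content was available for 99.9% of the genes tested.

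The members and lists were chosen with earlier results of these data known. Named are all members, Brpf1, the 2 most abundant genes of each further lineage list, any gene past the threshold between the viruses, and the 2 genes nearest in profile to each member; other genes are said to be chosen after their values were seen. RefSeq promoter windows were used for sequences. Alternatives were another pseudocount, filter, scaling and trend setting, the replicate block and samples left out. Some lineage and marker genes are not reported here.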

Additional observations from a re-analysis of the deposited data

How the results depend on the processing

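Log2 differences between the viruses of the 9 members and Brpf1 were recomputed under 157 alternatives, of which 126 kept the sign, 31 reversed it and 0 passed the limma threshold (lowest adjusted p 0.83). All 31 came from leaving out a sample or a pair, and a left-out sample leaves the groups with unequal replicate numbers. Over all left-out samples or pairs the difference ran from -0.44 to 0.36 for Olig1, -0.21 to 0.23 for Olig2, -0.60 to 0.35 for Sox10, -0.20 to 0.26 for Nkx2-2, -0.20 to 0.22 for Pdgfra, -0.37 to 0.34 for Cspg4, -0.43 to 0.41 for Gpr17, -0.37 to 0.23 for Mbp and -0.29 to 0.23 for Cnp. For Brpf1 it ran from -0.36 to -0.06. With the block, the differences that changed sign without pair 1 were -0.098 for Olig1, -0.042 for Olig2, 0.012 for Cspg4 and -0.070 for Gpr17. Without pair 2 that of Cspg4 was 0.047. Without pair 3 they were -0.052 for Nkx2-2, -0.046 for Pdgfra, -0.045 for Gpr17, 0.027 for Mbp and 0.052 for Cnp. With the replicate block 0 genes passed, as without it, and no call changed. Leaving out samples or pairs gave 0 to 8 genes between the viruses. Between replicate numbers 8876 genes passed, 5493 with a filter of 5 FPKM, which tests fewer genes, and 3943 to 8466 when a number was left out. Members passing that test numbered 3 to 9 when a number was left out. Members higher in samples 3 than in samples 1 numbered 5 of 9 without the filter, where the cause was not tested. The myelin minus precursor difference between the viruses was -0.07 and ran from -0.17 to 0.07 when a number was left out. With 3 samples a group and 39 to 130 fragments, Nkx2-2 is the member that depth limits most.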
